A study of Homo sapiens and Mus musculus with 24 samples.

Results

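The comparison described here is the coculture of LNCaP cells with fibroblasts labelled CRPCCAFs, without drug, against LNCaP cells grown alone. LNCaP is a human prostate cancer cell line that answers to androgen; its genotype is given as WT and its cell type as epithelial. All LNCaP groups were sampled at day 7, and the vehicle was DMSO. The 2 libraries of LNCaP with CRPCCAFs under DMSO and the 2 of LNCaP alone under DMSO make up 4 of the 24 samples of the series, and RNA of the human cells was tested over 16042 genes, those at 1 RPKM (reads scaled to transcript length and library depth) or more in at least 2 of the 12 LNCaP libraries. Beside them stand 2 libraries of LNCaP with fibroblasts labelled CCAFs under DMSO, and 4 of LNCaP alone or with CRPCCAFs under 1 µM enzalutamide, an antiandrogen. The labels spell out neither CCAF nor CRPCCAF. The series' own cancer-associated fibroblasts (CAFs) were isolated from PtenPC-/-; Trp53PC-/- mice, and those used here for reference, 2 untreated libraries of day 0, from mice under ADT, which the labels do not spell out either, and no label gives the species of the fibroblasts in the cocultures. The labels call the 2 libraries of a group biological replicates without saying whether they were separate cocultures, so each p-value measures the spread between such libraries.

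Stromal fibroblasts signal to neighbouring epithelium through secreted factors and matrix, and prostate cancer cells answer such signals through a few well-known programs. Low oxygen or a stabilised HIF-1 raises glycolytic enzymes and genes such as VEGFA and CA9. Retinoic acid, through its nuclear receptors, induces the enzymes that break it down. Growth factors raise immediate early genes within minutes, NF-kB raises chemokines, and androgen raises KLK3, the gene of prostate-specific antigen.

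Whole reads worked back from the spacing of low RPKM values came to 17850431 to 22187880 per library over the 12 LNCaP libraries. Luminal genes marked every library: KRT8, a luminal keratin, stood at 192 and 186 RPKM alone and 254 and 282 with CRPCCAFs, and FOLH1, the prostate-specific membrane antigen, at 422 and 418 alone and 418 and 397 with CRPCCAFs. Paired values are the 2 libraries of a group, higher and lower mean an adjusted p under 0.05 by limma across all genes, and log2 changes are differences of log2(RPKM + 1), so folds of genes near or under 1 RPKM are compressed on that scale. Folds are ratios of mean RPKM.

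With CRPCCAFs, 4905 of the 16042 genes differed from LNCaP alone (30.6%), of which 2286 were higher (14.3%) and 2619 lower (16.3%). These shares stand beside the list counts of this comparison given below. The median change of all genes was -0.020. The rises were larger than the falls: 270 genes rose and 26 fell by at least 2.0-fold on this scale, and 45 rose and 1 fell by at least 4.0-fold. Of the 270, 214 carried a gene name of the kind used here. Of the 26 falls, 6 did, and 11 were short RNAs such as small nucleolar RNAs. When the test was run on the 4 libraries alone, which leaves 2 residual degrees of freedom, 2603 genes were called.

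The 20 largest rises among named genes included matrix and adhesion genes, retinoid enzymes, hypoxia-linked genes and transcription factors of the immediate early class. AKAP12, a scaffold that anchors protein kinase A, stood at 1.28 and 1.00 RPKM alone and 23.1 and 21.7 with CRPCCAFs (19.6-fold, log2 3.45, SE 0.0765, adjusted p = 5.6e-09). SCNN1G, a subunit of the epithelial sodium channel, went from 0.34 and 0.259 to 9.25 and 8.84 (30.2-fold, log2 2.95, SE 0.0734, adjusted p = 9.4e-09). For both genes the CRPCCAF libraries lay far above the LNCaP alone libraries. A lack of overlap was required of every gene named for the largest rises and falls. NEDD9, a docking protein of focal adhesions, was at 1.79 and 2.18 alone and 16.4 and 16.6 with CRPCCAFs (8.33-fold, log2 2.56, adjusted p = 2.1e-08). NMB, the gene of the peptide neuromedin B, was at 2.52 and 2.24 alone and 19.1 and 23.7 with CRPCCAFs (8.98-fold, log2 2.72, adjusted p = 1.5e-06). NKAIN1, VSTM2L and PXDC1 rose as well, by log2 2.72, 2.77 and 2.83, from under 1 RPKM in every LNCaP alone library. All 40 genes named for the largest rises and falls kept their call under each alternative run.

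**Figure D1:**
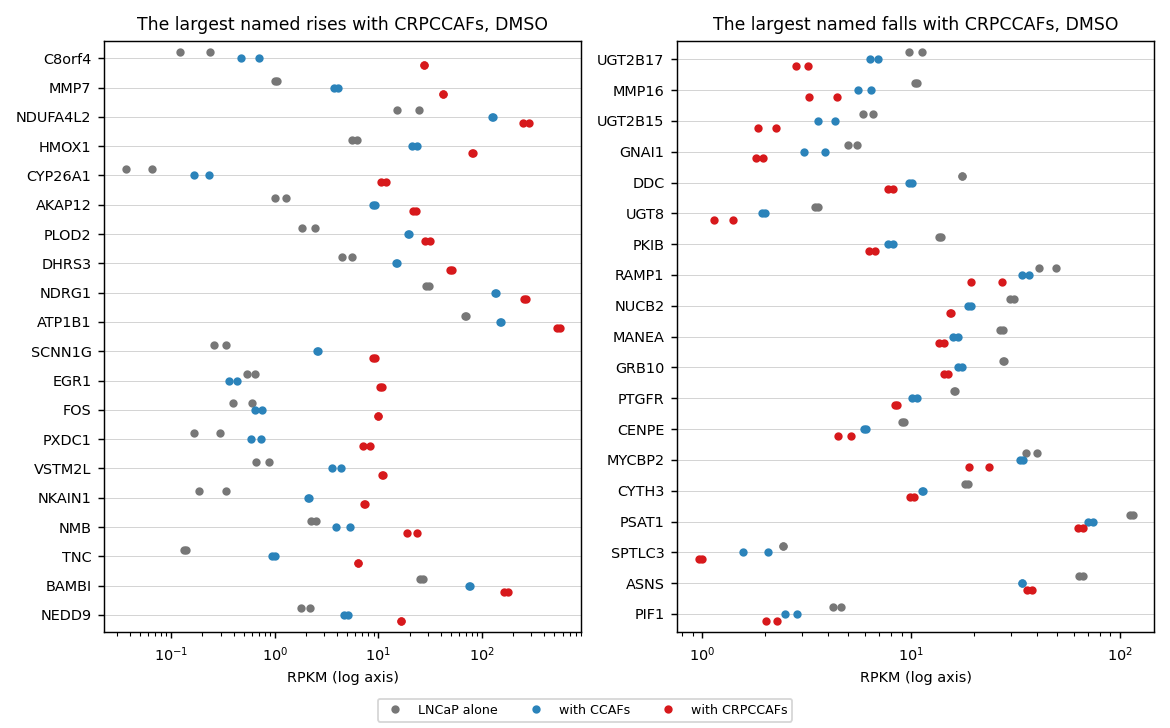
RPKM on a log axis for the 20 largest named rises (left) and 19 of the 20 largest falls (right), 1 point per library, for LNCaP alone (grey), with CCAFs (blue) and with CRPCCAFs (red), all under DMSO. For each gene the 2 red points lie apart from the 2 grey ones, which the rule for naming these genes required. For the rises the 2 blue points lie between the grey and red ones for most genes but at or near the grey ones for EGR1 and FOS.

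Genes that low oxygen induces were higher almost throughout. Outside glycolysis, 32 of 32 tested members were higher and 0 lower, with a median of 1.33, and of the glycolysis genes 19 of 22 were higher and 1 lower, with a median of 0.96, against 14.3% of all genes higher. The member of each list with the largest rise is shown here by the 250 bases before a transcription start, from the RefSeq promoter table of build GRCh38.p14, because both hold the core of the hypoxia response element, ACGTG or GCGTG, in capitals on either strand (CACGTG would hold ACGTG on both). The NDUFA4L2 promoter (listed in that table as COXFA4L2) is chr12:57240763-57241012, minus strand, and the SLC16A3 promoter is chr17:82234649-82234898, plus strand; where a gene had several starts, the one with the most matches is printed.
NDUFA4L2: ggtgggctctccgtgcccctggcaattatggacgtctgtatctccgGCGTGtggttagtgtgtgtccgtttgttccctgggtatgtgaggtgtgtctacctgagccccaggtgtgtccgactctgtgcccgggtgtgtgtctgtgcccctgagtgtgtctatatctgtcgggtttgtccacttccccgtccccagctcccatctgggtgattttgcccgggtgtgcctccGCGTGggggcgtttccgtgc
SLC16A3: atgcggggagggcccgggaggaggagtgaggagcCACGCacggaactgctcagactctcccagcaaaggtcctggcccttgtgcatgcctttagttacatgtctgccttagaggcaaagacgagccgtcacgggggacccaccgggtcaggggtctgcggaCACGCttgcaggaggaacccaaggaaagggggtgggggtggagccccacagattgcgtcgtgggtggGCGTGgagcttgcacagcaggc
One of these cores was present in 32 of 38 promoters (250 bases before to 50 after a start) of the higher members outside glycolysis (84.2%) and in 27 of 38 of the higher glycolysis members (71.1%), beside 48.4% of all 35116 promoters in the table. Of the higher members, 28 of 32 outside glycolysis and 19 of 19 glycolysis genes had a listed promoter. The lists were made of genes known as hypoxia-induced or glycolytic, so these shares describe the lists. The matches describe letters in a window and were not tested for binding.

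NDUFA4L2, a mitochondrial protein that lowers complex I activity under hypoxia, stood at 24.7 and 15 RPKM alone and 248 and 286 with CRPCCAFs (13.5-fold, log2 3.72, SE 0.168, adjusted p = 3.5e-07). The LNCaP alone libraries differed from each other, and both lay far below the CRPCCAF ones. PLOD2, a lysyl hydroxylase that prepares collagen for cross-linking, went from 2.44 and 1.82 to 31.2 and 28.4 (14-fold, log2 3.30, adjusted p = 1.6e-08). NDRG1, a stress-responsive gene and a known androgen target too, went from 30.8 and 28.6 to 254 and 263 (8.71-fold, log2 3.08, SE 0.0394, adjusted p = 1.3e-10). VEGFA, the endothelial growth factor that draws in vessels, was at 19.2 and 15.9 alone and 74.4 and 77.6 with CRPCCAFs (4.33-fold, log2 2.06, adjusted p = 5.5e-08). P4HA1, a prolyl hydroxylase of collagen, was at 29 and 27.1 alone and 105 and 98 with CRPCCAFs (3.63-fold), and BHLHE40, a repressor induced by HIF-1, at 11.9 and 11.8 alone and 45.6 and 43.3 with CRPCCAFs (3.75-fold). The smallest change in this list was 0.27.

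Within glycolysis the rises ran from entry to export of carbon. SLC16A3, the lactate exporter MCT4, was at 7.32 and 4.73 RPKM alone and 38.1 and 41 with CRPCCAFs (6.56-fold, log2 2.55, SE 0.132, adjusted p = 8.9e-07). The bifunctional enzymes that set fructose-2,6-bisphosphate, PFKFB4 (4.7-fold, log2 2.12, adjusted p = 4.6e-07) and PFKFB3 (4.25-fold, log2 1.95, adjusted p = 2.1e-08), rose too. PGK1, phosphoglycerate kinase, went from 246 and 224 to 852 and 859, and LDHA, which makes lactate, from 391 and 364 to 1033 and 1007 (2.7-fold, log2 1.43, adjusted p = 1.8e-08). The 2 members not called were LDHB and SLC16A1: LDHB, which favours the reverse reaction, was at 238 and 227 alone and 214 and 217 with CRPCCAFs (log2 -0.11, adjusted p = 0.13), and SLC16A1, the transporter MCT1, at 31 and 30.9 alone and 31.7 and 30.1 with CRPCCAFs (adjusted p = 0.99). The 1 lower member was PFKM, the muscle form of phosphofructokinase, at 46.2 and 46.1 alone and 39.6 and 38.6 with CRPCCAFs, which was picked out after its value was seen. Of the hypoxia-inducible factors and their regulators, 2 of 7 were higher, beside 14.3% of all genes. EPAS1, which encodes HIF-2 alpha, was at 0.702 and 0.728 alone and 2.64 and 2.95 with CRPCCAFs (log2 1.15, adjusted p = 1.6e-05), and ARNT2, a dimer partner, at 3.57 and 3.31 alone and 4.33 and 4.73 with CRPCCAFs (log2 0.32, adjusted p = 0.0038). HIF1A itself, which is set mainly by protein stability, was at 38.3 and 42.1 alone and 38.6 and 32.7 with CRPCCAFs (log2 -0.17, adjusted p = 0.099).

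**Figure D2:**
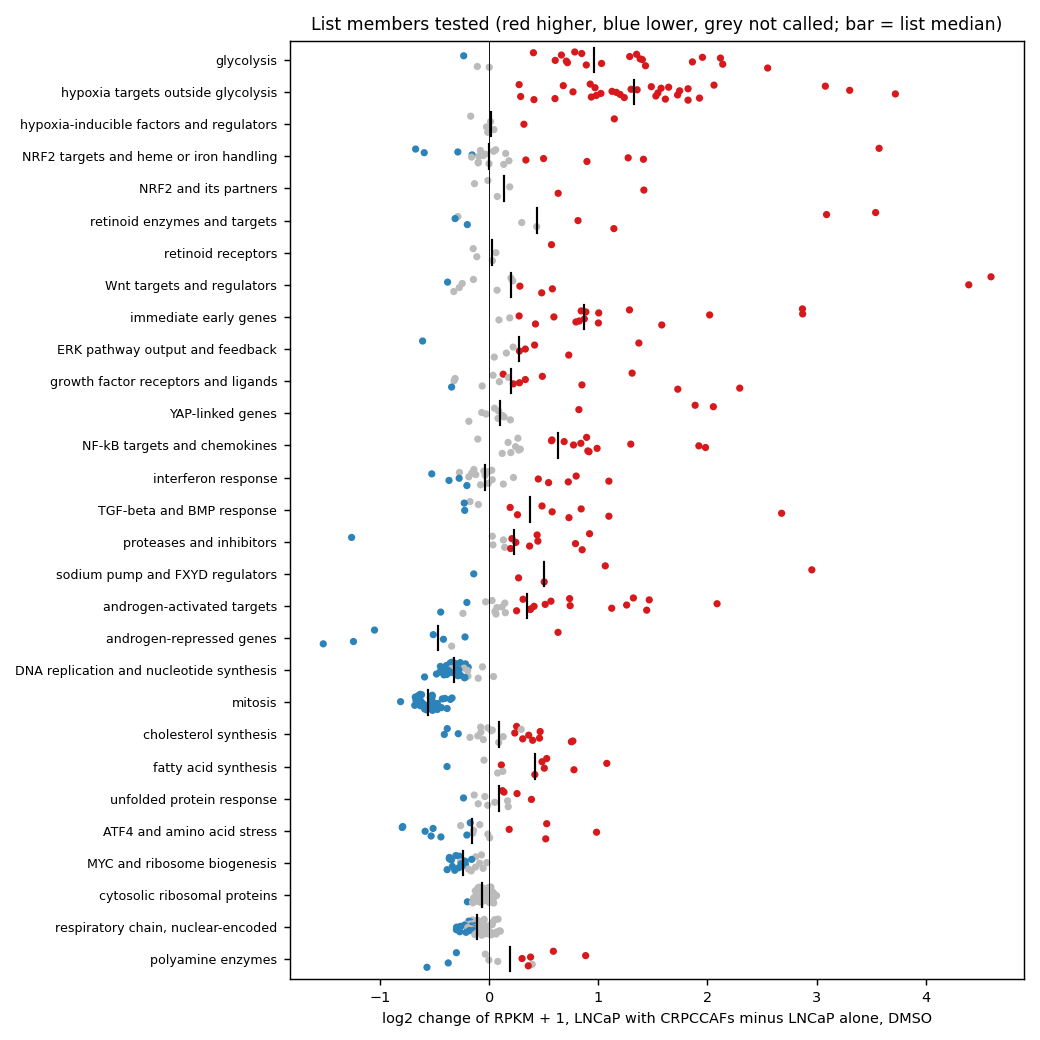
Log2 changes of RPKM + 1, LNCaP with CRPCCAFs minus LNCaP alone under DMSO, for the tested members of the pathway lists described here, 1 point per gene. Members that passed are red (higher) or blue (lower), others grey, and the bar is the list's median, which is 1.33 for hypoxia targets outside glycolysis and -0.56 for mitosis.

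A pair of retinoid enzymes, CYP26A1 and DHRS3, were among the largest rises. CYP26A1, the cytochrome that clears retinoic acid and is itself induced by it, was at 0.0655 and 0.0365 RPKM alone, from 3 and 2 reads, and at 10.6 and 11.9 with CRPCCAFs, from 476 and 548 reads (log2 3.54, SE 0.0879, adjusted p = 9.4e-09). DHRS3, which reduces retinaldehyde to retinol, went from 5.57 and 4.41 to 48.8 and 51 (9.99-fold, log2 3.09, adjusted p = 1.6e-08). The 250 bases before 1 of the 2 listed CYP26A1 starts are shown because they hold a retinoic acid response element of the direct repeat kind with 5 spacer bases, in capitals, which lies on the minus strand (GRCh38.p14, chr10:93073643-93073892, plus strand).
CYP26A1: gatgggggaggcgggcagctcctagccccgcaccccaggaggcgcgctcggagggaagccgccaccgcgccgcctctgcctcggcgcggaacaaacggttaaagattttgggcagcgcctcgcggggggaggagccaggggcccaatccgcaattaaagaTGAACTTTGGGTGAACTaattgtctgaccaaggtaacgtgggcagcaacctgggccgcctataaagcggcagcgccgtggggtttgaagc
By this pattern 31 of the 35116 promoters hold such an element, which is 0.1%, and of the 4 higher members 3 were in the table and 1 held it. In the list as a whole 4 of 9 tested members were higher and 2 lower, with a median of 0.43; without LNCaP alone replicate 2 or CRPCCAF replicate 2, 1 was lower. TGM2, a transglutaminase that retinoic acid induces in many cells, was at 0 and 0.025 alone and 1.29 and 1.18 with CRPCCAFs (log2 1.14, adjusted p = 2.8e-04). ALDH1A3, which makes retinoic acid and is also androgen-regulated, went from 29.4 and 29.9 to 53.2 and 52.6 (1.78-fold, log2 0.81, adjusted p = 1.1e-06). The 2 lower members were RDH11, a prostate retinal reductase (log2 -0.31, adjusted p = 1.8e-04), and RETSAT, a retinol saturase (log2 -0.20, adjusted p = 0.012), whose call was lost without LNCaP alone replicate 2 or CRPCCAF replicate 2. Of the receptors, RARA rose from 2.85 and 2.47 to 3.99 and 4.91 (log2 0.57, adjusted p = 0.0051), while RXRA was at 20.6 and 19.3 alone and 17.9 and 18.8 with CRPCCAFs (log2 -0.11, adjusted p = 0.076).

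C8orf4, also called TCIM and described as a positive regulator of Wnt signalling, had the largest rise of all named genes on the log2(RPKM + 1) scale. It was at 0.235 and 0.123 RPKM alone, from 8 and 5 reads, and at 27.3 and 27.8 with CRPCCAFs, from 911 and 950 reads (log2 4.6, SE 0.0848, adjusted p = 1.6e-09). MMP7, the epithelial protease matrilysin and a known Wnt target, went from 1.06 and 1.01 to 42 and 41.6 (40.5-fold, log2 4.40, SE 0.0933, adjusted p = 4.3e-09). In the whole Wnt list 5 of 13 tested members were higher and 1 lower (2 without LNCaP alone replicate 1), with a median of 0.20. CCND1, cyclin D1, was at 98.2 and 102 alone and 122 and 121 with CRPCCAFs (log2 0.28, adjusted p = 1.5e-04), and CTNNB1, which encodes beta-catenin, at 110.4 and 109 alone and 117 and 114 with CRPCCAFs (log2 0.07, adjusted p = 0.13). ZNRF3, a ligase that removes Wnt receptors, fell from 3.88 and 3.83 to 2.77 and 2.68 (log2 -0.38, adjusted p = 0.0035).

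Immediate early genes, whose transcription follows growth factors and stress, were higher for 15 of 17 tested members and lower for 0, with a median of 0.87. EGR1, a zinc-finger factor, stood at 0.638 and 0.534 RPKM alone and 10.5 and 10.8 with CRPCCAFs (18.1-fold, log2 2.87, SE 0.10, adjusted p = 6.2e-08). Its promoter is shown because it holds CArG boxes, the sites of serum response factor, in capitals (GRCh38.p14, 250 bases before the start, chr5:138465229-138465478, plus strand).
EGR1: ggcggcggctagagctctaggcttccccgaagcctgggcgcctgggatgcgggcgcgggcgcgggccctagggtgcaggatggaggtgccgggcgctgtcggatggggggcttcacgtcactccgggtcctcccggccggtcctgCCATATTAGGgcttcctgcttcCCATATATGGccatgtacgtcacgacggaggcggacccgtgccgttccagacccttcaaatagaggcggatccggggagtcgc
A CArG box was present in 1 of the 15 promoters of higher members, that of EGR1, and in 1.3% of all promoters. Of the 15 higher members 13 had a listed promoter. FOS, a subunit of AP-1, was at 0.602 and 0.399 alone and 9.88 and 10.0 with CRPCCAFs (19.9-fold, log2 2.87, adjusted p = 5.9e-08). ATF3, a stress-induced partner of AP-1, went from 12.8 and 12.2 to 53.5 and 53.8 (4.3-fold, log2 2.02, adjusted p = 4.9e-08), and DUSP1, a phosphatase that ends MAP kinase signals, from 9.25 and 9.29 to 27.4 and 32.2 (3.22-fold, log2 1.58, adjusted p = 2.3e-07). JUNB and JUND, which dimerise with FOS, rose by log2 0.88 and 1.00. BTG2 (log2 0.09, adjusted p = 0.22) and IER5 (log2 0.19, adjusted p = 0.24) were the 2 members not called.

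Feedback genes of the ERK pathway were higher for 5 of 9 and lower for 1, but 3 were higher without either LNCaP alone library or CRPCCAF replicate 1. DUSP5, a nuclear ERK phosphatase, rose from 0.599 and 0.806 to 3.6 and 3.2 RPKM (log2 1.37, adjusted p = 3.5e-04), and DUSP4, a close relative, fell from 1.92 and 1.52 to 0.572 and 1.01 (log2 -0.61, adjusted p = 0.011). The DUSP4 call was lost without LNCaP alone replicate 1 or CRPCCAF replicate 1. Among growth factor receptors and ligands 9 of 16 were higher and 1 lower; 5 were higher without LNCaP alone replicate 2, and 6 higher and 0 lower without LNCaP alone replicate 1 or CRPCCAF replicate 1. EGFR, the receptor of epidermal growth factor, was at 9.69 and 9.64 alone and 27.4 and 23.6 with CRPCCAFs (2.64-fold, log2 1.31, adjusted p = 8.8e-07), and IGFBP3, which carries insulin-like growth factors outside the cell, at 7.03 and 7.87 alone and 40.9 and 40.0 with CRPCCAFs (5.43-fold, log2 2.30, adjusted p = 1.6e-08). ERBB3, the receptor of neuregulins, stood at 35.9 and 35.5 alone and 37 and 36.1 with CRPCCAFs (log2 0.03, adjusted p = 0.49). Beside 14.3% of all genes higher and 16.3% lower, 3 of 12 YAP-linked genes were higher and 0 lower. These were the secreted matricellular proteins CYR61, from 5.68 and 6.02 to 23.1 and 25.6 (4.16-fold, log2 1.89, adjusted p = 8.0e-08), and CTGF, from 0.0923 and 0.0386 to 3.49 and 3.36 (log2 2.05, adjusted p = 2.3e-06), and AMOTL2, which holds YAP at junctions (log2 0.82, adjusted p = 1.7e-05).

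NF-kB targets and chemokines were higher for 12 of 20 tested members and lower for 0, with a median of 0.63. IL32, an inflammatory cytokine, was at 0.584 and 0.641 RPKM alone and 6.0 and 4.8 with CRPCCAFs (8.81-fold, log2 1.98, SE 0.113, adjusted p = 1.6e-06). Its promoter is shown because it holds a kappa-B site, in capitals (GRCh38.p14, 250 bases before a start, chr16:3065153-3065402, plus strand).
IL32: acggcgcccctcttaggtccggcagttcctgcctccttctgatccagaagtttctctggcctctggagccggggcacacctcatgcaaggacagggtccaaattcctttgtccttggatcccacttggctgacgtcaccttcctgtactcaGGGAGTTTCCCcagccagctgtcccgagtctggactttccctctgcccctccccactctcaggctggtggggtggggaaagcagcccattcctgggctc
A kappa-B site was present in 8 of 13 promoters of the higher members (61.5%) and in 11.3% of all promoters. Of the 12 higher members 10 had a listed promoter. The list is of known NF-kB targets and chemokines, and its uncalled members were not counted, so the share describes the list. The capitals here span 2 overlapping matches, 1 on each strand. LCN2, an iron-carrier binding protein, went from 0.32 and 0.536 to 3.92 and 4.91 (10.3-fold, log2 1.92, adjusted p = 1.7e-05), and CXCL8, the neutrophil chemokine interleukin-8, from 0.127 and 0.0797 to 1.81 and 1.61 (log2 1.30, adjusted p = 6.2e-05). NFKBIA, the inhibitor that NF-kB itself induces, was at 33.7 and 28.7 alone and 58 and 59.2 with CRPCCAFs (1.88-fold, log2 0.89, adjusted p = 7.8e-06). BIRC3, an inhibitor of apoptosis, was at 2.0 and 1.76 alone and 4.48 and 3.83 with CRPCCAFs (log2 0.84, adjusted p = 1.2e-04). Against these, SOD2, a mitochondrial superoxide dismutase, was at 6.14 and 6.26 alone and 6.52 and 7.12 with CRPCCAFs (log2 0.12, adjusted p = 0.19), and NFKB1, a subunit of the factor, at 16.9 and 17.3 alone and 16 and 15.6 with CRPCCAFs (log2 -0.11, adjusted p = 0.14). Of the interferon response genes 5 of 23 were higher and 4 lower (2 without CRPCCAF replicate 1), beside 14.3% and 16.3% of all genes. Among the higher members were HLA-B and HLA-C, which present peptides, at log2 0.72 and 0.54; these genes are near-identical in stretches, and counting could have split their reads. Of the lower members, OAS3, an antiviral enzyme, went from 8.71 and 8.97 to 5.72 and 5.93 (log2 -0.53, adjusted p = 7.0e-04), while ISG15, a ubiquitin-like protein that interferon induces strongly, was at 75.1 and 72.8 alone and 66.6 and 81 with CRPCCAFs (log2 -0.01, adjusted p = 0.96).

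HMOX1, the heme oxygenase that NRF2 and heme induce, rose from 5.51 and 6.24 to 79.2 and 82.3 RPKM (13.8-fold, log2 3.57, SE 0.0843, adjusted p = 7.3e-09). In its list, of NRF2 targets and heme or iron genes, 6 of 23 were higher and 4 lower, beside 14.3% and 16.3% of all genes. FTH1, the heavy chain of the iron store ferritin, was at 1260.5 and 1192 alone and 2168 and 2399.7 with CRPCCAFs (1.86-fold, log2 0.90, adjusted p = 2.2e-06). AKR1C1 and AKR1C3, aldo-keto reductases that also act on steroids, rose by log2 1.27 and 1.41 from under 1 RPKM; they are close copies of each other, so their split is uncertain. NQO1, a quinone reductase, fell from 79.7 and 74.9 to 47 and 49.1 (log2 -0.68, adjusted p = 2.3e-06), and SLC7A11, the cystine transporter, from 18.8 and 20.2 to 13.2 and 11.9 (log2 -0.60, adjusted p = 7.6e-05). Of the 6 higher members 4 had a listed promoter, and HMOX1 was not among them. An antioxidant response core, TGANNNNGC on either strand (TGACNNNGC is a case of it), was present in 3 of the 7 promoters of those 4 members and in 41.8% of all. Of NRF2's partners MAFF rose from 0.962 and 0.519 to 3.78 and 3.45 (log2 1.42, adjusted p = 4.8e-05) and MAFK from 15.1 and 16.1 to 23.1 and 26.3 (log2 0.63, adjusted p = 2.4e-04), while NFE2L2, which encodes NRF2, was at 18.1 and 17.4 alone and 17.3 and 17.8 with CRPCCAFs (log2 -0.01, adjusted p = 0.86).

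TGF-beta and BMP response genes were higher for 8 of 12 and lower for 2 (1 without either LNCaP alone library), with a median of 0.37. BAMBI, a decoy receptor that dampens TGF-beta signals, was at 24.9 and 26.7 RPKM alone and 164 and 177 with CRPCCAFs (6.62-fold, log2 2.68, SE 0.0475, adjusted p = 1.4e-09). SMAD3, a signal transducer of TGF-beta, went from 1.96 and 2.43 to 5.86 and 5.75 (2.65-fold, log2 1.10, adjusted p = 5.6e-06), and SKIL, a SMAD repressor, from 4.63 and 5.07 to 9.73 and 9.24 (log2 0.84, adjusted p = 1.0e-05). ID1, the textbook BMP target, was at 30.8 and 33.8 alone and 26.6 and 30.3 with CRPCCAFs (log2 -0.18, adjusted p = 0.075). Of proteases and their inhibitors 9 of 14 were higher and 1 lower. HPN, the membrane serine protease hepsin, rose from 50.3 and 46.3 to 84.1 and 91.8 (1.82-fold, log2 0.85, adjusted p = 2.4e-06), and TIMP2, a metalloprotease inhibitor, from 12.6 and 12.4 to 22.4 and 22.4 (1.79-fold, log2 0.79, adjusted p = 7.8e-07). The 1 lower member was MMP16, a membrane-bound metalloprotease, at 10.6 and 10.4 alone and 4.4 and 3.25 with CRPCCAFs (log2 -1.26, adjusted p = 3.3e-05). Of the sodium pump list 4 of 5 were higher and 1 lower, and 2 were higher without either LNCaP alone library or CRPCCAF replicate 2. ATP1B1, the beta subunit of the sodium pump, went from 69 and 70.0 to 560.3 and 533 (7.87-fold, log2 2.96, SE 0.0335, adjusted p = 8.5e-11), and ATP1B3, another beta subunit, fell from 87 and 87 to 79.8 and 77.7 (log2 -0.14, adjusted p = 0.010).

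Androgen-activated targets were higher for 15 of 26 and lower for 2 (1 without LNCaP alone replicate 2 or CRPCCAF replicate 2), with a median of 0.34. TRPM8, a cold-sensing channel of the prostate, was at 3.88 and 3.76 RPKM alone and 19.6 and 19.4 with CRPCCAFs (5.1-fold, log2 2.09, adjusted p = 1.1e-07). TMPRSS2, a membrane protease, went from 105 and 98.2 to 282 and 283 (2.78-fold, log2 1.47, adjusted p = 2.5e-08), and KLK2, a kallikrein close in sequence to KLK3, from 54.6 and 48.1 to 127 and 133 (2.52-fold, log2 1.32, adjusted p = 1.1e-06). KLK3 rose 1.67-fold (log2 0.74, adjusted p = 1.0e-05). SLC45A3, an equally well-known target at high level, was at 137 and 135 alone and 131 and 134 with CRPCCAFs (log2 -0.03, adjusted p = 0.46). NCOA1 and NCOA2, coactivators of nuclear receptors, fell by 0.42 and 0.43 on the log2 scale, and FOXA1, a pioneer factor, by 0.21. Genes that androgen represses went down for 6 of 8 and up for 1, with a median of -0.47. UGT2B17 and UGT2B15, which inactivate androgens and are near-identical copies, went from 9.77 and 11.3 to 2.82 and 3.19 (log2 -1.52, adjusted p = 4.0e-07) and from 6.57 and 5.86 to 2.25 and 1.84 (log2 -1.25, adjusted p = 1.4e-05). DDC, an aromatic amino acid decarboxylase, fell from 17.5 and 17.5 to 7.73 and 8.15 (log2 -1.05, adjusted p = 9.5e-08), and the exception was CAMK2N1, an inhibitor of calcium/calmodulin kinase II, up from 20.4 and 23 to 32.6 and 35.6 (log2 0.63, adjusted p = 5.3e-05).

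Proliferation genes were lower in most of their lists' members. Of the mitosis genes 36 of 36 were lower and 0 higher, with a median of -0.56, against 16.3% of all genes lower. CDK1, the mitotic kinase, was at 79.2 and 82.1 RPKM alone and 52.3 and 49.7 with CRPCCAFs (log2 -0.65, adjusted p = 3.3e-06). PLK1, a kinase of spindle assembly, was at 33.9 and 34.2 alone and 22.1 and 19.7 with CRPCCAFs (log2 -0.68, adjusted p = 6.0e-05), and CENPE, a kinetochore motor, at 9.07 and 9.24 alone and 5.13 and 4.44 with CRPCCAFs (log2 -0.81, adjusted p = 1.5e-04). Genes of DNA replication and nucleotide synthesis were lower for 32 of 39 and higher for 0, with a median of -0.33; 19 were lower without LNCaP alone replicate 1 and 21 without CRPCCAF replicate 1. TYMS, thymidylate synthase, was at 94.5 and 93.3 alone and 66.3 and 67.3 with CRPCCAFs (log2 -0.49, adjusted p = 0.0014), and GINS2, part of the replicative helicase, at 20.5 and 20.6 alone and 18.4 and 21 with CRPCCAFs (log2 -0.06, adjusted p = 0.53). MYC and the ribosome biogenesis genes were lower for 17 of 26 and higher for 0 (median -0.24), with 11 lower without LNCaP alone replicate 2: NOP56, a nucleolar protein, went from 83.6 and 80.3 to 62.3 and 64.5 (log2 -0.37, adjusted p = 1.2e-04), and MYC was at 90.6 and 84.6 alone and 82.4 and 84 with CRPCCAFs (log2 -0.07, adjusted p = 0.21). Cytosolic ribosomal proteins were lower for 1 of 78 and higher for 0 (median -0.06), with 9 lower without CRPCCAF replicate 2 and 0 without LNCaP alone replicate 1 or CRPCCAF replicate 1. The nuclear-encoded respiratory chain was lower for 15 of 57 and higher for 0 (median -0.11), but 4 were lower without LNCaP alone replicate 1, 8 without LNCaP alone replicate 2 and 6 without CRPCCAF replicate 1.

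Lipid, stress and polyamine genes moved in part, beside 14.3% of all genes higher and 16.3% lower. For fatty acid synthesis 7 of 11 were higher and 1 lower (median 0.42): SCD, which desaturates fatty acids, went from 144 and 146 to 318 and 295 RPKM (2.12-fold, log2 1.08, adjusted p = 6.2e-08), and the 1 lower member was ELOVL6, an elongase (log2 -0.39, adjusted p = 4.5e-04). For cholesterol synthesis 9 of 23 were higher and 3 lower, with INSIG1, the brake on sterol-driven transcription, at 43.3 and 39.8 alone and 72.1 and 70.4 with CRPCCAFs (log2 0.77, adjusted p = 1.0e-05). Of the ATF4 and amino acid stress genes 4 of 18 were higher and 8 lower, with 2 higher without LNCaP alone replicate 2 or CRPCCAF replicate 2. PSAT1 and PHGDH, which make serine, fell by 0.80 and 0.52 on the log2 scale, and ASNS, asparagine synthetase, went from 66.2 and 63.4 to 37.9 and 36 (log2 -0.79, adjusted p = 1.1e-06). VLDLR, a lipoprotein receptor that ATF4 and hypoxia both induce, rose from 3.78 and 3.61 to 8.87 and 7.71 (log2 0.98, adjusted p = 4.6e-05). The unfolded protein response list had 4 of 12 higher and 1 lower, but 1 higher without LNCaP alone replicate 2 and 2 lower without CRPCCAF replicate 1. GDF15, a secreted stress cytokine, rose from 287 and 254 to 978 and 1121 (3.88-fold, log2 1.95, adjusted p = 8.0e-08) and CDKN1A, the cell cycle inhibitor p21, from 94.7 and 101 to 152 and 151 (1.54-fold, log2 0.62, adjusted p = 3.0e-06), whereas MDM2, a ubiquitin ligase, fell from 34.6 and 36.2 to 28 and 26.1 (log2 -0.38, adjusted p = 3.8e-04). Among polyamine enzymes 5 of 12 were higher and 3 lower (3 higher without LNCaP alone replicate 2), with SAT1, which acetylates polyamines for export, at 70.7 and 73.3 alone and 129 and 139 with CRPCCAFs (log2 0.88, adjusted p = 2.6e-06).

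Luminal epithelial markers were higher for 11 of 17 and lower for 1 (0 without LNCaP alone replicate 2 or either CRPCCAF library). ELF3, an epithelial transcription factor, went from 8.41 and 10.1 to 29.4 and 31.7 RPKM (3.3-fold, log2 1.62, adjusted p = 5.3e-07), and KRT19, a keratin of simple epithelia, from 3.42 and 2.99 to 10.3 and 11.2 (3.37-fold, log2 1.49, adjusted p = 1.7e-05). CDH1, E-cadherin, was at 126 and 129.9 alone and 150.0 and 145 with CRPCCAFs (log2 0.20, adjusted p = 0.0010). Of 7 mesenchymal transition markers 3 were tested, of which 2 were higher. SNAI2, a repressor of epithelial genes, rose from 0.564 and 0.643 to 2.33 and 2.04 (log2 0.99, adjusted p = 3.5e-04). TWIST1, another, rose from 9.68 and 7.72 alone to 11.4 and 12 with CRPCCAFs (log2 0.40, adjusted p = 0.011), a call lost without LNCaP alone replicate 2 or CRPCCAF replicate 2. SNAI1 was at 1.71 and 0.795 alone and 1.65 and 0.883 with CRPCCAFs (log2 0.02, adjusted p = 0.97). ZEB1, ZEB2, TWIST2 and CDH2 were too low to be tested. KRT14, a basal keratin, was at 0.496 and 1.16 alone and 1.11 and 1.28 with CRPCCAFs (adjusted p = 0.26). KRT15, another, was listed at 0 in both LNCaP alone libraries and stood at 0.15 and 0.176 with CRPCCAFs (adjusted p = 0.31). Of 10 neuroendocrine markers 2 were tested. SYT4 was higher, at 13.3 and 13.5 alone and 18.3 and 17.6 with CRPCCAFs (log2 0.40, adjusted p = 1.7e-04), and SYP was not called (log2 0.08, adjusted p = 0.81). INSM1, a neuroendocrine factor, was listed at 0 in all 4 libraries. CD68, a lysosomal protein used as a macrophage marker, rose from 4.61 and 4.37 to 8.57 and 9.81 (log2 0.89, adjusted p = 6.4e-05). VWF, an endothelial marker, rose from 1.05 and 0.897 to 1.55 and 1.61 (log2 0.39, adjusted p = 0.0097), a call lost without LNCaP alone replicate 2. The other members of these lists, of 6 macrophage and leukocyte and 5 endothelial markers, were too low to be tested. Among them, PTPRC was at 0 and 0.0145 and PECAM1 at 0 and 0 RPKM with CRPCCAFs. The part of CD68 and VWF in other results was not tested.

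Fibroblast RNA was looked for with 28 marker genes, of which 11 passed the filter on low values, 5 of them higher and 0 lower. The summed level of all 28 was 94.6 and 91.3 RPKM alone and 214 and 204 with CRPCCAFs. FN1, fibronectin, went from 38.1 and 40.5 to 142 and 129 (3.46-fold, log2 1.76, adjusted p = 3.7e-08). VIM, vimentin, rose from 3.6 and 2.38 to 10.0 and 10.7 (log2 1.52, adjusted p = 2.0e-05), and COL1A1, a chain of type I collagen, from 4.49 and 4.75 to 7.22 and 8.25 (log2 0.63, adjusted p = 1.6e-04). The other chain, COL1A2, averaged 5251 TPM (a length-scaled share of all transcripts) in the mouse CAFs of ADT mice and was at 0.29 and 0.0167 RPKM alone and 0 and 0.0299 with CRPCCAFs. SPARC, a matrix protein at 4421 TPM in those CAFs, was at 0.452 and 0.252 alone and 0.139 and 0.195 with CRPCCAFs. POSTN, COL6A3, MMP2 and DCN were each at 0 in 1 CRPCCAF library and under 0.05 RPKM in the other, and FAP was listed at 0 in all 4. Of the 20 markers at 100 TPM or more in CAFs of ADT mice, 12 were under 1 RPKM in both CRPCCAF libraries. Among the 300 genes with the highest TPM in these CAFs, 25 were under 0.5 RPKM in both LNCaP alone libraries, and 2 of those reached 1 RPKM in both CRPCCAF libraries: LOX, a collagen cross-linking enzyme that hypoxia induces, and TNC, the matrix protein tenascin C. TNC, at 1507 TPM in the CAFs, was at 0.138 and 0.132 RPKM alone and 6.37 and 6.39 with CRPCCAFs (log2 2.70, adjusted p = 2.7e-08). Symbols were matched between species by their letters, and the sources used here do not say how reads of each species were told apart. The part of fibroblast RNA in the other results was not tested, and in these bulk samples fewer cells of a kind and less RNA per cell cannot be told apart.

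**Figure D3:**
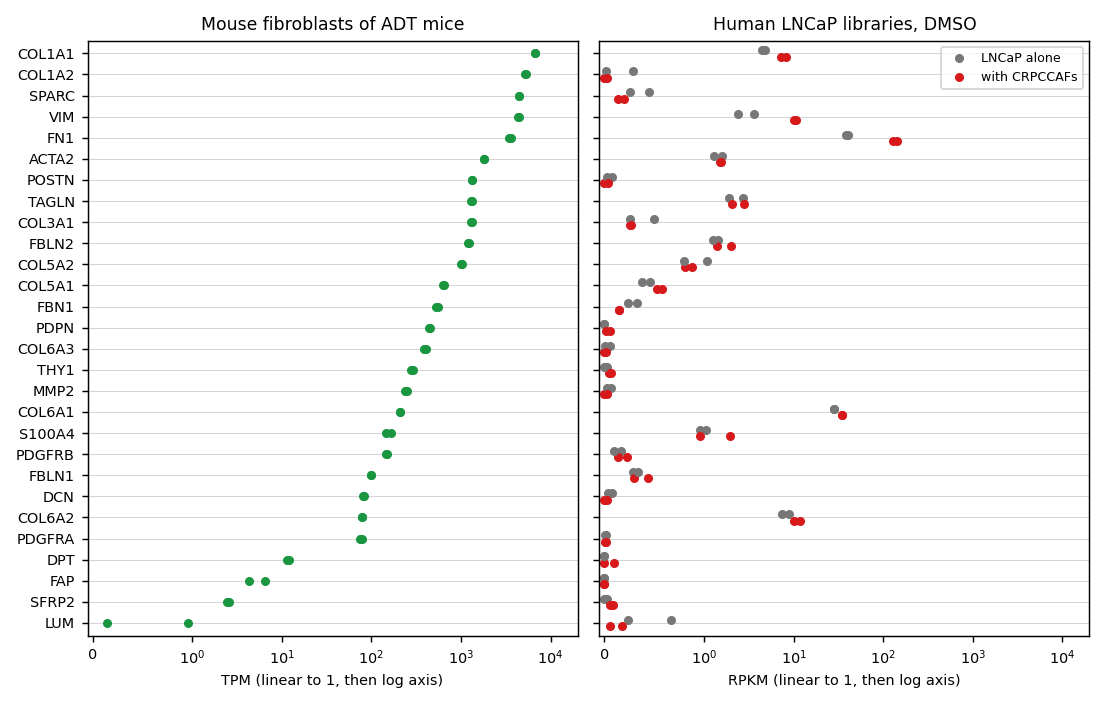
The 28 fibroblast markers in the 2 mouse CAF libraries of ADT mice (left, TPM) and in the human LNCaP libraries under DMSO (right, RPKM; grey alone, red with CRPCCAFs), on axes that are linear to 1 and logarithmic above. FN1, VIM and COL1A1 lie to the right of the grey points in the CRPCCAF libraries, whereas COL1A2, SPARC and POSTN lie near 0 in both groups.

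The CCAF coculture under DMSO was set beside the CRPCCAF one to see which genes differed between the fibroblast kinds. Directly compared, 2156 genes differed (13.4%), of which 1127 were higher with CRPCCAFs (7.03%) and 1029 lower (6.41%); without CCAF replicate 2 the number was 821 (66.5% of them higher, against 52.3%), without CCAF replicate 1 934 (65.4%), without CRPCCAF replicate 2 1319, and with these 4 libraries fitted alone 397 (78.3%). Against LNCaP alone, with which both comparisons share their controls, the CCAF coculture had 1518 genes called (9.46%), 878 higher (5.47%) and 640 lower (3.99%). Hypoxia targets outside glycolysis were higher than alone for 27 of 32 with CCAFs and 32 with CRPCCAFs, and 23 were higher with CRPCCAFs than with CCAFs. Glycolysis genes were higher for 19 of 22 with CCAFs and 19 with CRPCCAFs, with 13 higher in the direct comparison. LDHA was at 976 and 966 RPKM with CCAFs and 1033 and 1007 with CRPCCAFs (log2 0.07, adjusted p = 0.28), and VEGFA at 36.4 and 36.7 with CCAFs and 74.4 and 77.6 with CRPCCAFs (log2 1.04, adjusted p = 2.1e-05).

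Immediate early genes were higher than alone for 5 of 17 with CCAFs, and 14 were higher with CRPCCAFs than with CCAFs. EGR1 was at 0.363 and 0.435 RPKM with CCAFs, no higher than the 0.638 and 0.534 of LNCaP alone, against 10.5 and 10.8 with CRPCCAFs (log2 3.05, SE 0.10, adjusted p = 2.4e-07). CYR61 stood at 5.2 and 5.1 with CCAFs, below the LNCaP alone libraries, and FOS at 0.647 and 0.753 (log2 2.69, adjusted p = 4.5e-07 between the cocultures). GADD45B, a stress-induced regulator of MAP kinases, was at 2.52 and 2.33 with CCAFs and 12.7 and 13.2 with CRPCCAFs (log2 2.03, adjusted p = 5.6e-05). NF-kB targets were higher than alone for 1 of 20 with CCAFs, and 12 were higher and 1 lower with CRPCCAFs than with CCAFs. CYP26A1 was at 0.167 and 0.233 with CCAFs from 8 and 11 reads (log2 3.35, adjusted p = 5.4e-08 between the cocultures), and FTH1 at 1070.4 and 1043, below LNCaP alone (log2 1.11, adjusted p = 2.4e-06).

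Androgen-activated targets were higher than alone for 17 of 26 with CCAFs and lower for 1, with a median of 0.53. With CRPCCAFs 15 were higher and 2 lower, with a median of 0.34. Androgen-repressed genes were lower than alone for 5 of 8 with CCAFs and higher for 1. Directly compared, 4 of the 26 androgen-activated targets were higher and 5 lower with CRPCCAFs than with CCAFs. KLK2 was at 120.1 and 121 with CCAFs (log2 0.10, SE 0.0702, adjusted p = 0.38), while TMPRSS2, at 161 and 162, was higher with CRPCCAFs (log2 0.80, adjusted p = 4.0e-06). Mitosis genes were lower than alone for 22 of 36 with CCAFs, and 22 were lower with CRPCCAFs than with CCAFs. Replication genes were lower than alone for 1 of 39 with CCAFs, and 24 were lower with CRPCCAFs than with CCAFs. Among them was CCNE2, cyclin E2, at 16.9 and 17.6 with CCAFs and 11.4 and 10.4 with CRPCCAFs (log2 -0.61, adjusted p = 2.8e-04). List counts between the cocultures are from the fit of all 12 libraries. With the 4 coculture libraries fitted alone, lower calls over all genes went from 1029 to 86. JAG1, a Notch ligand, was at 12.2 and 12.6 alone, 19.8 and 19.5 with CCAFs and 11.5 and 12.1 with CRPCCAFs (log2 -0.69, adjusted p = 7.5e-05), so the CCAF libraries were the high ones. The histone genes HIST1H2BJ and HIST2H2BF were lower with CRPCCAFs than with CCAFs as well (log2 -0.85 and -0.64), and for both the CCAF libraries were again the high ones. HIST2H2BF was at 1.47 and 1.78 alone, 3.63 and 3.34 with CCAFs and 1.6 and 2.17 with CRPCCAFs. Histone copies share sequence, so their counts are uncertain. DHRS2, a carbonyl reductase, was at 2.52 and 2.48 with CCAFs and 0.985 and 1.21 with CRPCCAFs (log2 -0.74, adjusted p = 0.0050).

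**Figure D4:**
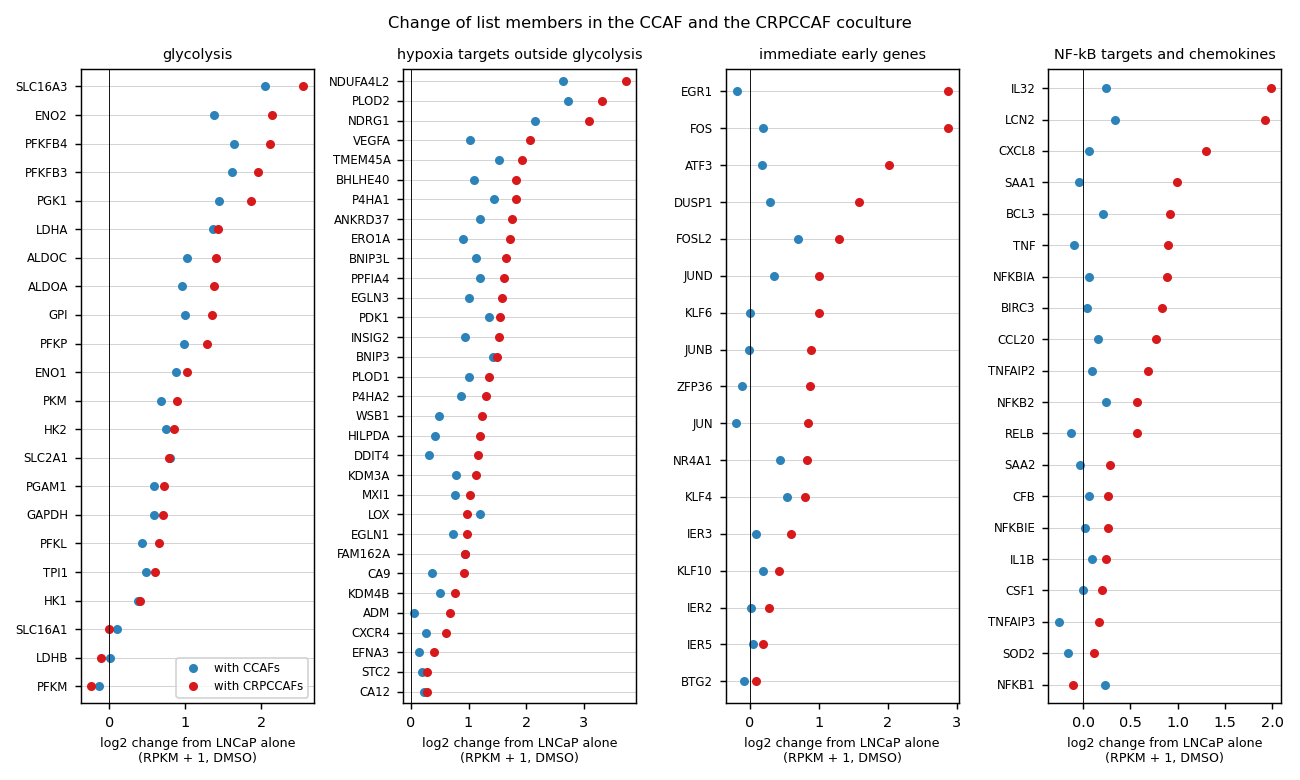
Log2 changes of RPKM + 1 from LNCaP alone under DMSO in the CCAF (blue) and the CRPCCAF coculture (red), for the tested members of 4 lists, 1 point per gene and coculture; both share the LNCaP alone libraries. In the glycolysis and hypoxia panels blue and red both lie right of 0 for most genes, and in the immediate early and NF-kB panels the blue points lie near 0 for most genes.

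The coculture was also measured under enzalutamide, in libraries that share none with the DMSO groups. There 5788 genes differed between LNCaP with CRPCCAFs and LNCaP alone (36.1%), 2650 higher (16.5%) and 3138 lower (19.6%). Of the 2286 genes higher under DMSO, 1512 (66.1%) were called higher and 64 (2.8%) lower under enzalutamide, and of the 2619 lower genes 1681 (64.2%) were called lower and 39 (1.5%) higher. Hypoxia targets outside glycolysis were higher for 30 of 32, immediate early genes for 16 of 17 and NF-kB targets for 20 of 20. Mitosis genes were lower for 35 of 36. Androgen-activated targets, in contrast, were higher for 9 of 26 and lower for 8. CYP26A1 was at 0.0401 and 0 RPKM alone and 32.3 and 31.7 with CRPCCAFs under enzalutamide, and HMOX1 at 6.41 and 6.25 alone and 124 and 126 with CRPCCAFs, both with larger coculture changes than under DMSO by the test of the difference (log2 1.47 and 0.53, adjusted p = 1.7e-04 and 0.030). For HMOX1 that call was lost when any 1 of the 8 libraries but LNCaP alone DMSO replicate 1 was left out.

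The test of that difference called 1125 genes (7.01%), 590 with a more positive (3.68%) and 535 with a more negative change under enzalutamide (3.33%). Leaving out either LNCaP alone library under DMSO, either under enzalutamide, or either CRPCCAF library under enzalutamide left 580 to 673. NF-kB targets were more positive for 13 of 20 and more negative for 0, and glycolysis genes more positive for 11 of 22 and more negative for 1. Androgen-activated targets were more positive for 3 of 26 and more negative for 10. CP, the copper-carrying ferroxidase ceruloplasmin, showed the largest difference: under DMSO it was at 0.568 and 0.554 RPKM alone and 3.83 and 4.38 with CRPCCAFs, and under enzalutamide at 0.902 and 1.08 alone and 71.5 and 71.5 with CRPCCAFs (log2 3.48, SE 0.102, adjusted p = 6.0e-07). LCN2 was at 0.765 and 0.319 alone and 23.8 and 23.2 with CRPCCAFs under enzalutamide (log2 2.08, adjusted p = 5.2e-04), and NFKBIZ, an inducible NF-kB cofactor, at 0.628 and 0.932 alone and 27.6 and 26.7 with CRPCCAFs after 0.735 and 0.572 alone and 5.45 and 6.05 with CRPCCAFs under DMSO (log2 1.96, adjusted p = 6.1e-05). In each of these genes the libraries with both CRPCCAFs and enzalutamide were the highest of the 4 groups.

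In the other direction, IGFBP3 was already high under enzalutamide without fibroblasts, at 155 and 159 RPKM, and stood at 206 and 209 with CRPCCAFs (log2 -1.89, adjusted p = 5.9e-06 for the difference of changes). VSTM2L was at 3.14 and 3.25 alone and 4.44 and 5.38 with CRPCCAFs under enzalutamide (log2 -2.27, adjusted p = 3.0e-05). EFNB2, the ligand ephrin-B2, turned around: it was higher with CRPCCAFs under DMSO, at 12.2 and 11 against 7.14 and 7.39, and lower under enzalutamide, at 4.74 and 4.66 against 8.94 and 9.67 (log2 -1.46, adjusted p = 2.9e-05). MMP7 was listed at 0 in both LNCaP alone libraries under enzalutamide and at 6.71 and 5.47 with CRPCCAFs, and its difference of changes was -1.58 with a pseudocount of 1 but 0.74 with one of 0.1 (adjusted p = 1.6e-04 and 0.062), so its direction is set by the pseudocount. ADAM7 and PGC, epididymal and gastric-type protease genes, rose with CRPCCAFs under DMSO by log2 1.44 and 1.61 and were under 1 RPKM in all 4 enzalutamide libraries.

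**Figure D5:**
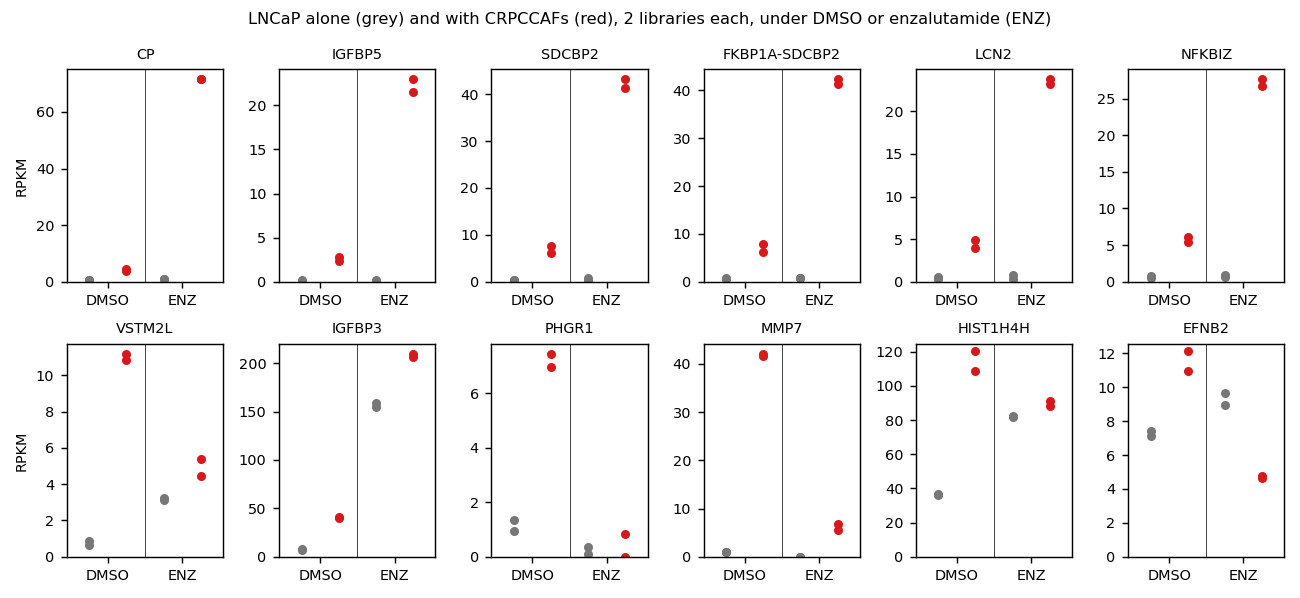
RPKM on linear axes that start at 0 for the 6 largest differences of the CRPCCAF change in each direction (top more positive under enzalutamide, bottom more negative), 1 point per library, LNCaP alone in grey and with CRPCCAFs in red, DMSO on the left and enzalutamide (ENZ) on the right of each panel. In the top row the red points under enzalutamide are the highest of all, and for EFNB2 the red points lie above the grey ones under DMSO and below them under enzalutamide.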

How the data were processed

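RNA of 12 LNCaP and 12 mouse fibroblast libraries was sequenced (Trizol RNA, NEBNext Ultra kit, HiSeq, per the labels' protocols). The authors deposited RPKM for LNCaP and TPM for the fibroblasts, per the file headers. HISAT2, HTSeq, DESeq2, hg19 and mm10 are named, without roles, per the submitters' processing notes; how reads of each species were told apart is not stated in them. The tests were run on the deposited RPKM, and no count test was run on the reads worked back from them.

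From the 44591 names, 27 calendar dates were dropped. Genes at 1 RPKM or more in at least 2 libraries, 16042 in all, were fitted once with limma 3.58.1 (R 4.3.3) on log2(RPKM + 1) with trended variances, all 6 LNCaP groups and no replicate block (6 residual degrees of freedom). P values are two-sided and adjusted by Benjamini-Hochberg within each of 5 comparisons (threshold 0.05). Reads were recovered for 25005 genes from whole-number steps (within 0.02 reads, at least 6 libraries above 0). Libraries of 1 number did not deviate together (r -0.0617 to 0.084 across genes), so the numbers were not used to pair samples. This check cannot tell whether libraries of 1 number were prepared together.

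The members and lists were chosen with earlier results of these data known. Named genes are the 20 largest rises and 20 largest falls (called, at least 1 RPKM in a group, libraries apart, no clone, locus or short RNA names), up to 8 called members with the largest change and up to 2 uncalled with the highest level of each of 31 pathway lists, the 10 largest differences in each direction between the cocultures and between the drug conditions, markers, and a short set that holds KLK3, KLK2, FKBP5, C8orf4, MMP7, CYP26A1, HMOX1, NDUFA4L2, HIF1A and MYC; not all are printed, and a few genes are not reported here. Promoters are from RefSeq (GRCh38.p14), with names matched by symbol or single synonym. The fit was tested on simulated data. Alternatives were a pseudocount of 0.1, no filter, median-of-ratios scaling, a replicate block, each library left out, and the compared groups fitted alone.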

Additional observations from a re-analysis of the deposited data

Results flagged for a closer look

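The change with CRPCCAFs differed between enzalutamide and DMSO by the interaction test of limma for the following genes, given as the log2 change under enzalutamide minus that under DMSO. More positive under enzalutamide were CP (3.48), IGFBP5 (2.60), SDCBP2 (2.40), LCN2 (2.08), NFKBIZ (1.96), KITLG (1.85), ALDH1A3 (1.83) and CRYAB (1.76). FKBP1A-SDCBP2 (2.30) is a readthrough of SDCBP2 and shares its reads. More negative were VSTM2L (-2.27), IGFBP3 (-1.89), PHGR1 (-1.79), HIST1H4H (-1.50), EFNB2 (-1.46), PGC (-1.46), ADRA2A (-1.44), ADAM7 (-1.34) and F5 (-1.29). MMP7 stood at -1.58 with a pseudocount of 1 but at 0.74 with one of 0.1, so no direction is given for it. The PHGR1 call was lost without LNCaP alone replicate 2 under DMSO or replicate 1 under enzalutamide. Of the genes named on their own, C8orf4 (1.14), CYP26A1 (1.47), NDUFA4L2 (1.39), KLK3 (0.86) and HMOX1 (0.53) were more positive, and FKBP5 (-0.65) and MYC (-0.74) more negative. PHGR1, PGC, F5 and ADAM7 were under 1 RPKM in all 4 enzalutamide libraries. MYC stood at 16.8 and 16.9 RPKM alone and 8.93 and 9.34 with CRPCCAFs under enzalutamide.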

How the results depend on the processing

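The total of members called, summed over the lists, stayed within 1.5 times in every alternative, but counts of single lists did not. This is given beside the counts for CRPCCAFs against LNCaP alone under DMSO. List counts of the other comparisons are given from the main fit only. The number of genes called for CRPCCAFs against LNCaP alone was 4905, 2603 with these 4 libraries fitted alone, and 3382 to 4253 with each library left out. For CRPCCAFs against CCAFs it was 2156, 397 with the 4 libraries alone, and 821 to 1962 with each library left out; the share of higher calls was 52.3% at first and 78.3% with the 4 alone. For the difference between enzalutamide and DMSO it was 1125, 623 with the 8 libraries alone, and 580 to 1121 with each left out. For CRPCCAFs against LNCaP alone under enzalutamide every alternative stayed within 1.5 times. The replicate block gave 4847, 2013, 981 and 5729 genes for these comparisons. Since libraries of 1 number showed no shared deviation, this is a check of the fit only. Of 262 named genes called for CRPCCAFs against LNCaP alone, 204 kept the call in every alternative, 48 lost it without 1 library and 55 with the 4 libraries alone, and none reversed; ARNT2, ATP1B3 and FOXA1 lost it only in the latter. The drug difference of MMP7 went from -1.58 to 0.74 with a pseudocount of 0.1, since its LNCaP alone libraries under enzalutamide are at 0. With that pseudocount C8orf4 (adjusted p = 0.066), HMOX1 (0.051), PHGR1 (0.24), PGC (0.26) and F5 (0.12) lost their drug difference. With 2 libraries a group, changes of genes at a few reads are the least precise.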

Other observations

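Among the genes of the rule outside the lists, the following were among the 20 largest falls with CRPCCAFs under DMSO. UGT8, which makes galactosylceramide, went from 3.45 and 3.56 to 1.4 and 1.14 RPKM (log2 -0.99, adjusted p = 1.1e-04), and SPTLC3, a subunit of the enzyme that starts sphingolipid synthesis, from 2.43 and 2.43 to 0.963 and 0.995 (log2 -0.79, adjusted p = 2.6e-04). A lack of overlap between the groups was required of all falls named here. GNAI1, an inhibitory G protein subunit, fell from 4.97 and 5.51 to 1.81 and 1.94 (log2 -1.12, adjusted p = 2.4e-04), PKIB, an inhibitor of protein kinase A, from 13.9 and 13.6 to 6.67 and 6.27 (log2 -0.98, adjusted p = 1.8e-06), and PTGFR, the receptor of prostaglandin F, from 16.1 and 16 to 8.55 and 8.37 (log2 -0.85, adjusted p = 7.7e-07). GRB10, an adaptor that restrains insulin receptor signals, fell from 27.8 and 27.6 to 15.1 and 14.3 (log2 -0.87, adjusted p = 2.5e-07). With CCAFs GRB10 was at 17.5 and 16.7 RPKM (log2 -0.21, adjusted p = 0.0072 between the cocultures) and PKIB at 8.16 and 7.71 (log2 -0.26, adjusted p = 0.017).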
